A study of Rattus norvegicus with 12 samples.

Results

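MiR-221, miR-222 and miR-21 are microRNAs (miRNAs) known as promoters of cell growth. They were followed here, with both arms of each precursor, in extracellular vesicles (EVs) from 4 kinds of cultured rat cells. Probes were taken by name (miR-221, miR-222 or miR-21, with either arm suffix), which gave 6 of the 727 rat miRNA probes of the array. The members were the guide strands rno-miR-221-3p, rno-miR-222-3p and rno-miR-21-5p and the opposite arms miR-221-5p, miR-222-5p and miR-21-3p. The rule used names and no values, although it was set with earlier results of these data known.

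EV miRNA was hybridised to 12 one-colour arrays (3D-Gene miRNA Oligo Chip, Cy3), 1 EV sample per array and 3 arrays in each of 4 groups. Thy1-MC-EVs came from Thy1-positive mesenchymal cells of male F344/Nslc rat livers injured with d-galactosamine. MSC-EVs came from bone marrow mesenchymal stem cells. SH-EVs came from small hepatocytes, which are hepatocytic progenitor cells, and MH-EVs from mature hepatocytes, both of healthy rat livers. The liver cells were primary cells of adult rats, no group carried a stated transgene, and all 4 groups were kept in serum-free medium for 2 days before EVs were collected. Thy1 cells and MSCs were grown on plastic by the labels, whereas the methods give collagen-coated dishes for Thy1 cells; SHs were on hyaluronic acid and MHs on type I collagen. The labels name the Thy1 samples as liver stem cells, and they are called Thy1-MC-EVs here after the methods. Cell type, culture surface and, for Thy1-MC-EVs, the liver injury cannot be told apart. The sources do not give the strain and age of the MSC donors, or whether arrays of a group were separate cultures or animals, so the spread behind each p-value may be technical only.

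An miRNA pairs with target mRNAs mainly through its seed, bases 2 to 8 counted from its 5′ end, and lowers their translation or stability. MiR-221-3p and miR-222-3p are known for restraining the cell cycle inhibitors p27 and p57, and miR-21-5p for restraining PDCD4, a tumour suppressor. In liver these miRNAs are known from regenerating tissue and from tumours, and in mesenchymal cells from proliferation and fibrosis. Usually a single arm of a precursor becomes the guide strand, while the other is mostly degraded.

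The mature sequences are shown because the array reads each arm with a separate probe and because the seed decides which members could act on shared targets. All 6 members matched RefSeq entries (rat build GRCr8) by name. Capitals mark the seed.
miR-221-3p: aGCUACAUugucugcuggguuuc
miR-222-3p: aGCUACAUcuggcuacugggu
miR-21-5p: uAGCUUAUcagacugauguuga
miR-21-3p: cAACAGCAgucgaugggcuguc
MiR-221-3p and miR-222-3p shared the first 8 bases and, aligned from the 5′ end without gaps, 11 of 21 positions. These guides thus have the same seed and differ mostly after it in that alignment, although both hold the run cugggu near the 3′ end. The 2 were the only ones of 724 mature rat miRNAs in the RefSeq table with this seed, and miR-21-5p was the only one with its own. Probe cross-reaction between miR-221-3p and miR-222-3p was not tested.

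The genes of miR-221 and miR-222 are neighbours. The Mir222 hairpin lies at chrX:6022621-6022723 and the Mir221 hairpin at chrX:6023182-6023290, both on the plus strand, with 458 bases between them. Both lie within the annotated long non-coding RNA genes LOC120099382 and LOC120099384. Mature miR-222-3p is at chrX:6022682-6022702 and miR-221-3p at chrX:6023246-6023268. The Mir21 hairpin lies on the minus strand at chr10:71902600-71902691, outside annotated gene bodies and between the protein-coding genes Tubd1 and Vmp1. MiR-21-5p is at chr10:71902653-71902674 and miR-21-3p at chr10:71902615-71902636.

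A probe was detected where its raw intensity lay above the mean of the blank spots of the array plus 2 SD. Detected miRNAs numbered 228 to 359 on Thy1-MC-EV arrays, 174 to 256 on MSC-EV arrays, 271 to 330 on SH-EV arrays and 425 to 528 on MH-EV arrays. The MH-EV arrays stood apart in the control spots, with a median spike-in intensity of 5089 to 7884 on MH-EV arrays against 28850 to 32670 on the other 9. They also had dimmer blank spots, with means of 59.8 to 77.9 on MH-EV arrays against 96.8 to 136 on the others. The detection rule was permissive, since 44.4 to 76.7% of the 675 spots without a probe also passed it. Hepatocyte markers (miR-122-5p, miR-192-5p and miR-194-5p) summed to a background-subtracted intensity of 201 to 2559 in Thy1-MC-EVs, 70.9 to 475 in MSC-EVs, 236 to 1061 in SH-EVs and 30970 to 52290 in MH-EVs. SH-EVs, although from hepatocytic cells, thus lay within the range of Thy1-MC-EVs. The mesenchymal list (5 members) was detected in full on all 3 Thy1-MC-EV and all 3 MSC-EV arrays, and also on the MH-EV arrays.

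MSC-EVs carried more of all 3 guide strands than SH-EVs did. In the main model miR-221-3p was 9.53-fold and miR-21-5p 4.35-fold higher. The SH-EV level of miR-221-3p was close to background, and its log2 difference ran from 2.28 to 4.90 with the processing. For miR-21-5p the log2 difference fell to 1.2 with scaling to the spike-in spots and did not pass there (limma adjusted p = 0.163). For miR-222-3p only a bound can be given, at least 2.2-fold and valid for the main model alone. SH-EVs had no detected level of miR-222-3p, so it has no rank among the 3. Thy1-MC-EVs, the other mesenchymal source, did not share this: their guides lay below those of MSC-EVs, and no guide passed the test against SH-EVs. No guide passed the test between SH-EVs and MH-EVs either. These values were from 1 linear model of limma over the 387 miRNAs that had at least 1 group in which no array missed them, on normexp-corrected, quantile-normalized log2 intensities, with Benjamini-Hochberg adjustment over all 387 and a threshold of 0.05. Of the 6 members 4 were tested, and miR-221-5p and miR-222-5p did not pass the detection filter.

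MiR-221-3p was detected on all 12 arrays. Its raw intensities were 141, 230 and 159 in Thy1-MC-EVs, 332, 1317 and 461 in MSC-EVs, 151, 153 and 141 in SH-EVs, and 145, 128 and 133 in MH-EVs. Every MSC-EV array was brighter than all 9 others, before any scaling. With the blank background subtracted, the values were 44.4, 105 and 50.1 in Thy1-MC-EVs, 200, 1181 and 351 in MSC-EVs, 27.6, 38.0 and 39.9 in SH-EVs, and 70.7, 67.8 and 55.2 in MH-EVs. The lowest MSC-EV value again lay above the highest value elsewhere. In SH-EVs the probe was only 1.10 to 1.25 times the detection limit, and 4.89 to 10.5% of the spots without a probe were brighter, so the SH-EV level was close to background.

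**Figure D1:**
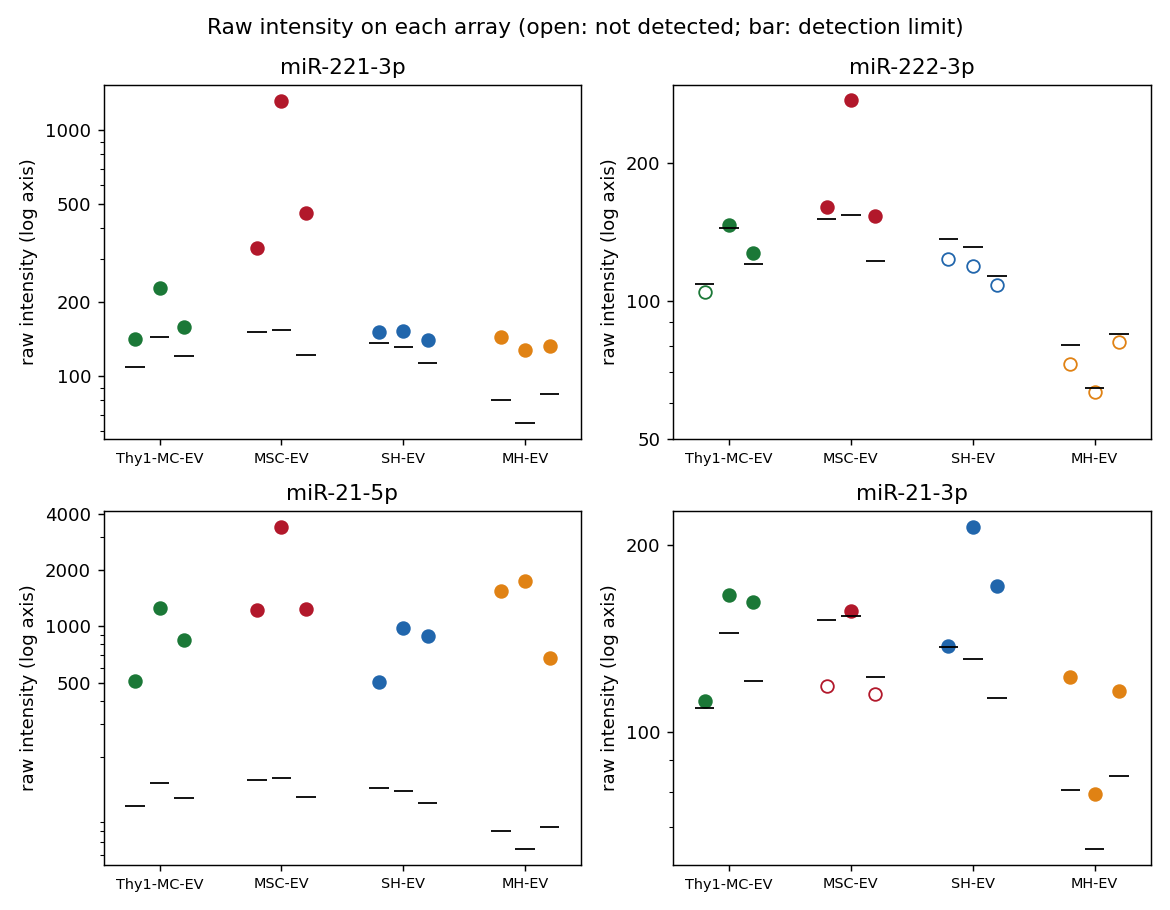
Raw intensity (log axis) of miR-221-3p, miR-222-3p, miR-21-5p and miR-21-3p on each of 3 arrays per EV group, with open points for probes not detected and black bars for the detection limit of each array. For miR-221-3p the 3 MSC-EV arrays (332, 461 and 1317) lie above all others, whereas for miR-21-5p the raw MSC-EV values (1222 to 3403) overlap with those of MH-EVs (678 to 1750).

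On the normalized log2 scale miR-221-3p averaged 7.15 ± 0.38 in Thy1-MC-EVs, 9.91 ± 0.44 in MSC-EVs, 6.66 ± 0.13 in SH-EVs and 6.79 ± 0.15 in MH-EVs (SD, n = 3 each). MSC-EVs were highest, and the order then ran Thy1-MC-EVs, MH-EVs and SH-EVs, among which no pair passed the test. The log2 difference was 3.25 ± 0.23 for MSC-EVs against SH-EVs (SE; limma adjusted p = 2.09e-06) and 3.12 ± 0.23 for MSC-EVs against MH-EVs (limma adjusted p = 2.61e-06). In Thy1-MC-EVs miR-221-3p was lower than in MSC-EVs, by a log2 fold change of -2.76 ± 0.23 (limma adjusted p = 1.07e-05). Thy1-MC-EVs against SH-EVs gave 0.49, with a 95% interval of -0.02 to 1.01 (limma adjusted p = 0.19). Thy1-MC-EVs against MH-EVs gave 0.37, from -0.15 to 0.88 (limma adjusted p = 0.276), and SH-EVs against MH-EVs -0.13, from -0.64 to 0.38 (limma adjusted p = 0.728). Leaving out any 1 array kept the difference of MSC-EVs against SH-EVs between 3.06 and 3.59.

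MiR-222-3p, which has the same seed, was near or below the detection limit outside MSC-EVs. Its raw intensities were 105, 147 and 127 in Thy1-MC-EVs, 160, 276 and 153 in MSC-EVs, 124, 120 and 108 in SH-EVs, and 73.0, 63.3 and 81.3 in MH-EVs. Detection held for 2 Thy1-MC-EV arrays, for all 3 MSC-EV arrays and for no SH-EV or MH-EV array. On the 3 MSC-EV arrays 26.5, 0 and 2.07% of the spots without a probe were brighter, against 22.4 to 68.6% on the Thy1-MC-EV arrays. Only MSC-EV replicates 2 and 3 thus stood clear of the spots without a probe, if under 5% is asked for, a criterion set after the data were seen.

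Normalized miR-222-3p averaged 6.42 ± 0.10 in Thy1-MC-EVs, 7.49 ± 0.22 in MSC-EVs, 6.15 ± 0.05 in SH-EVs and 6.01 ± 0.14 in MH-EVs on the log2 scale (SD, n = 3 each). The bounds that follow set the mean of the brighter group against, for each dim array, the faintest level that array could detect, or the measured level of the probe if that was higher. In the main model miR-222-3p was at least 2.2-fold higher in MSC-EVs than in SH-EVs and at least 2.62-fold higher in MSC-EVs than in MH-EVs. These bounds were not tested. The model tested the fitted log2 differences, 1.35 and 1.49, over groups with no detected level (limma adjusted p = 2.69e-05 and 1.02e-05). Without background correction the fitted log2 differences were 0.8 and 0.86, and with spike-in scaling 0.82 and -1.03, so the bounds do not hold there. The probe passed the detection filter only through MSC-EVs, so its calls are not independent of the filter. Without the filter the limma adjusted p was 1.97e-05 and 8.24e-06. Against MSC-EVs miR-222-3p was lower in Thy1-MC-EVs, by a log2 fold change of -1.07 ± 0.13 (SE; limma adjusted p = 0.000204). The model put Thy1-MC-EVs above MH-EVs by a log2 difference of 0.42 (limma adjusted p = 0.0338). The probe was detected on only 2 Thy1-MC-EV arrays and their group mean includes the undetected one, so no bound is given. That call was lost without any 1 of 6 arrays and without background correction (limma adjusted p = 0.0852), and scaling to the spike-in control spots turned it to -1.58. Thy1-MC-EVs against SH-EVs gave a log2 difference of 0.28, from -0.01 to 0.57 (limma adjusted p = 0.193), and no fold is given between SH-EVs and MH-EVs, where neither had a detected level.

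MiR-21-5p, the guide strand of miR-21, was detected on all 12 arrays and well above the spots without a probe on each. Raw intensities were 508, 1253 and 849 in Thy1-MC-EVs, 1222, 3403 and 1233 in MSC-EVs, 503, 974 and 883 in SH-EVs, and 1547, 1750 and 678 in MH-EVs. In raw intensity MSC-EVs lay above SH-EVs without overlap, but they overlapped with Thy1-MC-EVs and with MH-EVs. After normalization the arrays gave 9.88, 10.06 and 8.97 in Thy1-MC-EVs, 11.44, 11.74 and 11.64 in MSC-EVs, 9.78, 9.21 and 9.48 in SH-EVs, and 9.58, 10.34 and 8.48 in MH-EVs on the log2 scale. There the 3 MSC-EV arrays lay above all others. The spread was widest in MH-EVs, with an SD of 0.16 in MSC-EVs and 0.94 in MH-EVs.

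MSC-EVs exceeded SH-EVs in miR-21-5p by a log2 difference of 2.12 ± 0.41 (SE; limma adjusted p = 0.00276). For MSC-EVs against MH-EVs it was 2.14 ± 0.41 (limma adjusted p = 0.00211). Thy1-MC-EVs had a log2 fold change of -1.97 ± 0.41 against MSC-EVs (limma adjusted p = 0.00654). The other groups were close to each other: 0.15 for Thy1-MC-EVs against SH-EVs, 0.17 for Thy1-MC-EVs against MH-EVs and 0.02 for SH-EVs against MH-EVs (limma adjusted p = 0.852, 0.789 and 0.979). Their intervals were wide, from -0.89 to 0.93 in the last case, so differences below about that size were not detectable with 3 arrays per group.

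**Figure D2:**
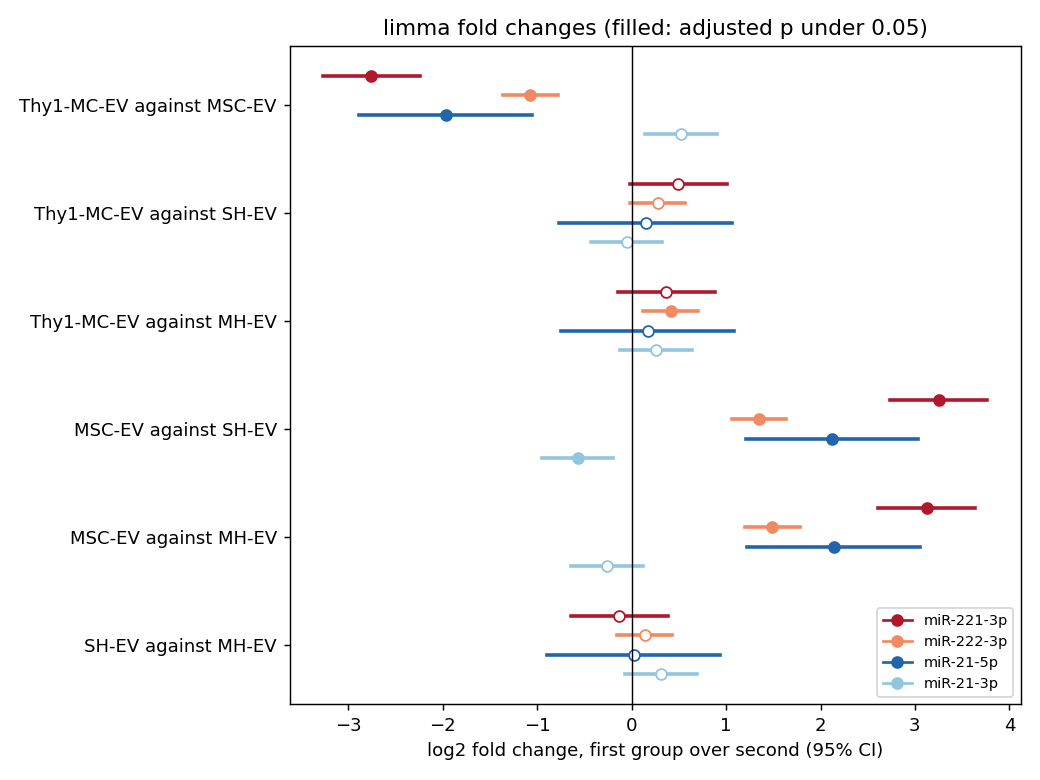
Log2 fold change (first group over second, x axis) with its 95% interval for the 4 tested members in each of 6 comparisons from the limma model on 12 arrays, filled where the adjusted p was under 0.05. The 3 guide strands lie right of 0 for MSC-EVs against SH-EVs (3.25, 1.35 and 2.12 for miR-221-3p, miR-222-3p and miR-21-5p), and miR-21-3p lies left of it (-0.57). The points of miR-222-3p against SH-EVs or MH-EVs are fitted values over groups with no detected level and are no measured folds.

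Among all 387 miRNAs tested, 27.6% were called in either direction for MSC-EVs against SH-EVs, 12.1% higher and 15.5% lower. All 3 guides were among those higher, and miR-21-3p, which was lower, made 4 of 4 tested members called. MiR-222-3p was among the 387 only through its detection in MSC-EVs. For MSC-EVs against MH-EVs the background was 35.4% called in either direction, 14.7% higher and 20.7% lower, and the 3 guides were called, all higher. For Thy1-MC-EVs against MSC-EVs 23.5% were called, 12.9% higher and 10.6% lower in Thy1-MC-EVs, with all 3 guides lower. Thy1-MC-EVs against SH-EVs had 14.5% called (6.98% higher, 7.49% lower) and no member among them. Thy1-MC-EVs against MH-EVs had 30% called (14.5% higher, 15.5% lower) and 1 member, miR-222-3p, among the higher ones. SH-EVs against MH-EVs had 32.6% called (15% higher, 17.6% lower) and no member. These comparisons share arrays, so they are not independent of each other.

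The comparisons with MH-EVs depended on how arrays were scaled, whereas for miR-221-3p those of MSC-EVs with SH-EVs and Thy1-MC-EVs did not. Under 6 other ways to correct and scale the arrays, miR-221-3p kept a log2 difference of 2.28 to 4.90 for MSC-EVs against SH-EVs and of -3.74 to -1.88 for Thy1-MC-EVs against MSC-EVs, past the threshold each time. Of the other guides, miR-222-3p (0.82, limma adjusted p = 0.0689) and miR-21-5p (1.2, limma adjusted p = 0.163) no longer passed for MSC-EVs against SH-EVs when arrays were scaled to the spike-in control spots, and the same held for Thy1-MC-EVs against MSC-EVs (-0.55 and -1.01). For MSC-EVs against MH-EVs, scaling to the spike-in control spots gave -0.08 for miR-221-3p, -1.03 for miR-222-3p and -1.70 for miR-21-5p. The median over all 387 miRNAs moved to -2.60 in that comparison under this scaling, against -0.12 in the main model. The 3 guides, all negative there, lay above this median, though miR-222-3p had no detected level in MH-EVs. With the normalized intensities of the authors, the same comparison gave a log2 difference of 2.01 for miR-221-3p, 2.44 for miR-222-3p and -0.28 for miR-21-5p, at a median of -1.92 over all miRNAs.

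**Figure D3:**
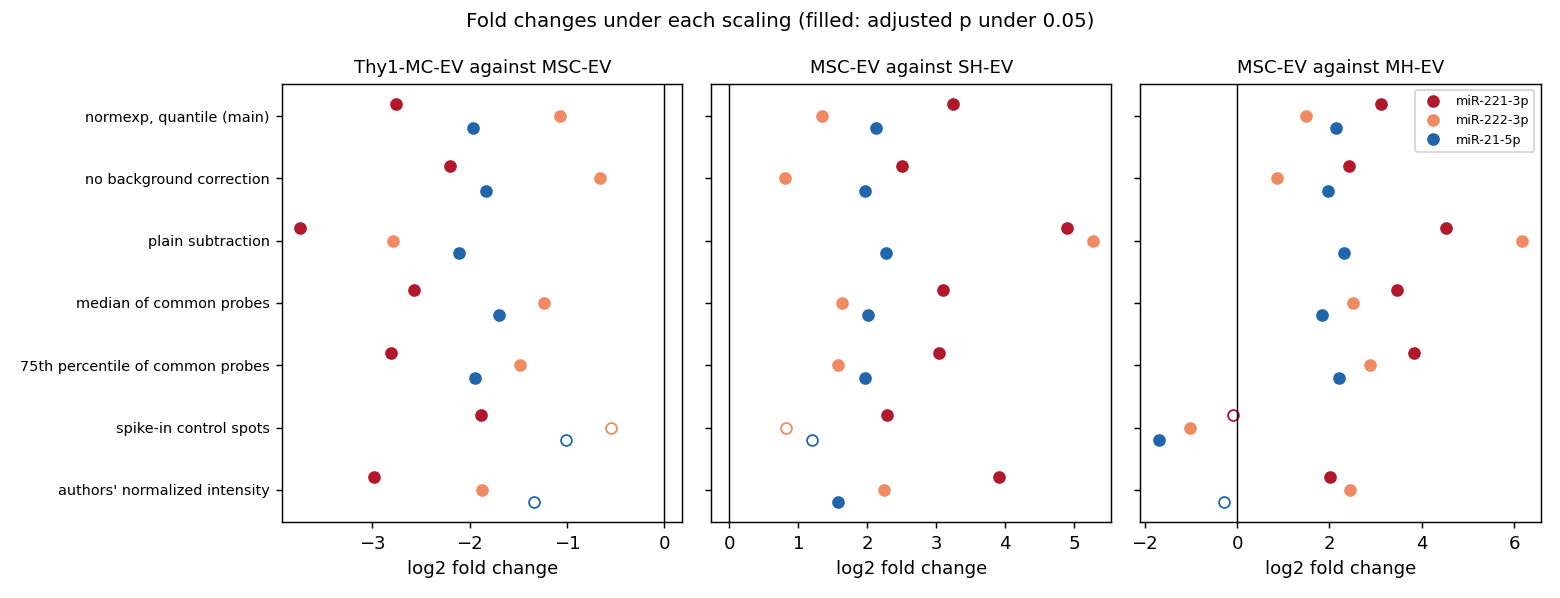
Log2 fold change (x axis) of miR-221-3p, miR-222-3p and miR-21-5p under 7 ways to correct and scale the arrays (rows) in the 3 comparisons with MSC-EVs, filled where the limma adjusted p was under 0.05. MiR-221-3p stays on 1 side of 0 and filled for Thy1-MC-EVs against MSC-EVs and for MSC-EVs against SH-EVs, while spike-in scaling moves all 3 guides below 0 for MSC-EVs against MH-EVs.

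MiR-21-3p, the opposite arm of miR-21, had raw intensities of 112, 166 and 162 in Thy1-MC-EVs, 119, 157 and 115 in MSC-EVs, 138, 214 and 172 in SH-EVs, and 122, 79.2 and 116 in MH-EVs. It was detected on 3 Thy1-MC-EV arrays, on 1 MSC-EV array, on 3 SH-EV arrays and on 3 MH-EV arrays. MSC-EVs, which had the highest normalized miR-21-5p in the main model though not the highest raw median, thus had it on the fewest arrays. On the MSC-EV arrays 57.3 to 99.9% of the spots without a probe were brighter, so its level there was not clear of background. The model gave a log2 fold change of -0.57 ± 0.17 for MSC-EVs against SH-EVs (SE; limma adjusted p = 0.0299). That call did not hold without MSC-EV replicate 1 or 3 or without SH-EV replicate 2 or 3 (limma adjusted p = 0.0968, 0.0717, 0.122 and 0.0971), and with median scaling of the common probes the difference was 0.01. Thy1-MC-EVs against MSC-EVs gave 0.52 (limma adjusted p = 0.0508), and no other comparison of miR-21-3p passed. For MSC-EVs against MH-EVs its log2 difference of -0.26 (limma adjusted p = 0.264) became 1.04 with median scaling (limma adjusted p = 0.00807) and 1.4 with the 75th percentile (limma adjusted p = 0.00498), in the direction of miR-21-5p (1.84 and 2.2), but -2.5 with spike-in scaling (limma adjusted p = 4.9e-06). Whether the arms of miR-21 changed alike thus depended on the scaling.

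The log2 difference of miR-21-5p minus miR-21-3p on the same array was 2.23 to 3.30 in Thy1-MC-EVs, 5.21 to 5.51 in MSC-EVs, 2.18 to 3.30 in SH-EVs and 1.95 to 3.94 in MH-EVs. The MSC-EV arrays did not overlap with the others. This pair was added after its values were seen and was not tested. Since miR-21-3p was not detected on 2 MSC-EV arrays, the values of those arrays rest on a level below the detection limit.

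The opposite arms of miR-221 and miR-222 had no measurable level. MiR-221-5p was detected on none of 12 arrays, with raw intensities of 59.9 to 143. MiR-222-5p was detected on 1 of 12, MH-EV replicate 1, at a raw intensity of 81.4 against a limit of 80.4, where 67.1% of the spots without a probe were brighter. In MSC-EVs, where miR-221-3p was highest, 89.0 to 99.1% of the spots without a probe were brighter than miR-221-5p. Both arms thus fell short of what these arrays could detect, which does not show that they were absent.

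Differences between members on the same array do not depend on a single scale factor of that array. The values here were taken after normexp correction and quantile normalization, which are not single factors, so they still depend on the processing. MiR-221-3p minus miR-222-3p averaged 0.73 ± 0.29 in Thy1-MC-EVs, 2.41 ± 0.23 in MSC-EVs, 0.51 ± 0.17 in SH-EVs and 0.78 ± 0.17 in MH-EVs on the log2 scale (SD, n = 3 each). The groups differed (exact permutation test over 369600 assignments of the arrays, two-sided, p = 0.00565, adjusted over 3 pairs p = 0.0169; smallest possible p = 6.49e-05). With plain background subtraction, however, the contrast of MSC-EVs with the mean of the other groups turned to -0.36 (exact permutation, adjusted p = 0.0351), and without normalization between arrays to -0.45. MiR-222-3p also had no detected level in SH-EVs and MH-EVs, so no order of the 2 neighbours' changes can be read from this difference.

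MiR-21-5p and miR-221-3p were both detected throughout. Their difference, miR-21-5p minus miR-221-3p, averaged 2.48 ± 0.20 in Thy1-MC-EVs, 1.70 ± 0.29 in MSC-EVs, 2.83 ± 0.16 in SH-EVs and 2.68 ± 0.80 in MH-EVs (SD, n = 3 each). It was smallest in MSC-EVs, but the groups did not differ past the threshold (exact permutation test, two-sided, p = 0.0644, adjusted p = 0.0965). A single array, MH-EV replicate 3 at 1.81, lay within the MSC-EV range of 1.46 to 2.01. Without that array the adjusted p was 0.00429 (exact permutation), and with plain subtraction it was 0.00682. No other left-out array brought it past the threshold, with an adjusted p of up to 0.277 (exact permutation). Of 4 other ways to process the arrays, plain subtraction among them, 3 passed, with an adjusted p down to 0.005 (exact permutation). The remaining way gave 0.444, so the call depended on the processing. MiR-21-5p minus miR-222-3p did not pass the test (exact permutation, adjusted p = 0.282).

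**Figure D4:**
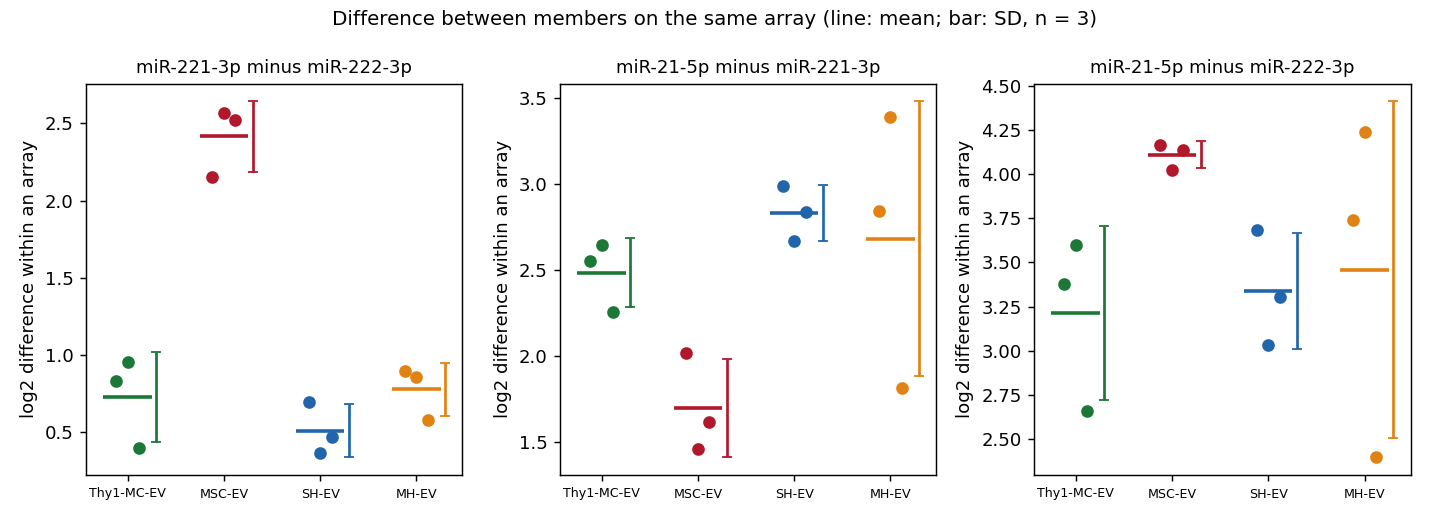
Log2 difference between 2 members on the same array (y axis) for 3 pairs, with 1 point per array, a line for the group mean and a bar for the SD (n = 3 arrays per EV group). MiR-221-3p minus miR-222-3p is 2.15 to 2.57 on MSC-EV arrays against 0.36 to 0.95 on the other 9, and miR-21-5p minus miR-221-3p has its lowest mean, 1.70, in MSC-EVs.

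The miRNAs most like the guides over the 12 arrays were named by Pearson correlation among the 150 miRNAs detected on every array, as a description. MiR-16-5p, known as a brake on the cell cycle and abundant in blood cells, was closest to miR-221-3p (r = 0.95), followed by miR-21-5p (0.92), let-7f-5p (0.90) and miR-501-3p (0.85). MiR-222-3p was closest to miR-221-3p (0.98), then miR-500-3p (0.92), miR-16-5p (0.90) and miR-501-3p (0.90). MiR-21-5p was closest to miR-221-3p (0.92), miR-16-5p (0.91), miR-17-5p (0.90) and let-7f-5p (0.87). The 3 MSC-EV arrays lie apart from the other 9 and set much of these values. Within the 9 other arrays, r was 0.68 for miR-221-3p with miR-222-3p, 0.64 for miR-221-3p with miR-21-5p, 0.20 for miR-222-3p with miR-21-5p, 0.37 for miR-221-3p with miR-16-5p and -0.09 for miR-222-3p with miR-16-5p.

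MiR-16-5p was also set beside miR-221-3p in fold change, where closeness follows in part from its choice by correlation over these same arrays. Its log2 difference was 3.15 ± 0.23 for MSC-EVs against SH-EVs (SE; limma adjusted p = 2.09e-06), beside 3.25 for miR-221-3p, and -2.76 for Thy1-MC-EVs against MSC-EVs (limma adjusted p = 9.44e-06), beside -2.76. For MSC-EVs against MH-EVs the 2 were further apart, at 2.46 for miR-16-5p beside 3.12. In background-subtracted intensity, however, MSC-EVs had 465, 1452 and 649 of miR-16-5p against 564, 620 and 255 in MH-EVs, so these groups overlapped, unlike for miR-221-3p.

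None of the marker sums of other cells was high in MSC-EVs alone. Erythroid markers (miR-451-5p and miR-144-3p) summed to a background-subtracted intensity of 1901 to 2358 in Thy1-MC-EVs, 1431 to 3734 in MSC-EVs, 0 in SH-EVs and 0 to 4.8 in MH-EVs. They were high in both mesenchymal sources and at or near 0 in both hepatocytic ones. Leukocyte markers (miR-142-3p, miR-142-5p, miR-223-3p and miR-150-5p) summed to 85.3 to 178 in Thy1-MC-EVs, 168 to 393 in MSC-EVs, 30.8 to 68.8 in SH-EVs and 153 to 308 in MH-EVs, with miR-142-3p detected on no MSC-EV array. Endothelial markers (miR-126a-3p and miR-126a-5p) summed to 59.5 to 111 in Thy1-MC-EVs, 46.0 to 133 in MSC-EVs, 0 in SH-EVs and 91.1 to 220 in MH-EVs. The part of these cells in the guides' levels was not tested. A larger share of an miRNA in an EV and a larger number of EVs loaded cannot be told apart on these arrays.

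Of 13 other listed miRNAs known as promoters of proliferation, 11 were tested, and for MSC-EVs against SH-EVs 2 were higher and 2 lower (12.1% and 15.5% of all 387), at a median of -0.10 beside -0.09 over all 387. MiR-27a-3p (0.99) and miR-17-5p, of the miR-17/92 cluster (0.82), were higher in MSC-EVs, and miR-31a-5p (-2.93) and miR-25-3p, of the miR-106b/25 cluster (-1.90), were lower (log2, limma adjusted p = 0.0137, 0.0328, 9.91e-06 and 5.46e-05). Both higher calls were lost under 5 of 6 other scalings. For Thy1-MC-EVs against SH-EVs 6 of the 11 were lower and none was higher, beside 7.49% lower and 6.98% higher over all miRNAs. These were miR-25-3p (-1.76), miR-19b-3p (-1.63), miR-92a-3p (-1.53), miR-31a-5p (-0.96), miR-106b-5p (-0.81) and miR-93-5p (-0.57), whereas no guide passed there. For Thy1-MC-EVs against MSC-EVs (10.6% lower and 12.9% higher over all miRNAs) 4 were lower, namely miR-19b-3p (-1.35), miR-27a-3p (-1.30), miR-17-5p (-1.14) and miR-93-5p (-0.78), and miR-31a-5p was higher (1.97). With spike-in scaling none was lower in either comparison.

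Against MH-EVs the counts turned with the scaling. For Thy1-MC-EVs 2 of the 11 were higher and 3 lower (14.5% and 15.5% over all miRNAs), and for MSC-EVs 4 were higher and 2 lower (14.7% and 20.7%). Among them miR-27a-3p was higher than in MH-EVs by 0.76 in Thy1-MC-EVs and by 2.06 in MSC-EVs, and miR-19b-3p had log2 fold changes of -1.89 in Thy1-MC-EVs and -0.54 in MSC-EVs. For SH-EVs against MH-EVs 5 were higher and none lower (15% and 17.6% over all miRNAs), led by miR-25-3p (1.64). With spike-in scaling all 11 were lower in each of the 3 comparisons. With the intensities the authors had normalized, 0 were higher and 9 lower for Thy1-MC-EVs, 1 and 9 for MSC-EVs, and 1 and 6 for SH-EVs.

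Among miRNAs known as brakes on proliferation, 9 of 25 tested were higher in MSC-EVs than in SH-EVs and 1 was lower (12.1% and 15.5% over all miRNAs), at a median of 0.28 beside -0.09. The lists were not tested against each other. MiR-16-5p led (3.15), followed by miR-378a-3p (2.89), miR-145-5p (2.68), miR-143-3p (2.46) and miR-15b-5p (1.82), while let-7e-5p went the other way (-2.01; limma adjusted p = 0.000103). For Thy1-MC-EVs against MSC-EVs 10 of the 25 were lower and 1 higher (10.6% and 12.9% over all miRNAs), with miR-16-5p (-2.76), miR-378a-3p (-2.10) and miR-34a-5p (-1.29) among the lower ones and let-7e-5p (0.93) the higher one. With spike-in scaling 1 was higher and 1 lower for MSC-EVs against SH-EVs and none passed for Thy1-MC-EVs against MSC-EVs. Thy1-MC-EVs against SH-EVs had 2 higher (miR-145-5p, 2.66; miR-143-3p, 1.17) and 2 lower (let-7e-5p, -1.07; miR-34a-5p, -0.85), where 6.98% and 7.49% of all miRNAs were called. With MH-EVs as the partner, 5 passed upward and 9 downward for Thy1-MC-EVs, 10 and 3 for MSC-EVs, and 4 and 8 for SH-EVs, each time with miR-122-5p among the lower ones, which marks hepatocytes (-4.55, -5.66 and -5.47). Over all miRNAs these shares were 14.5% and 15.5% for Thy1-MC-EVs, 14.7% and 20.7% for MSC-EVs, and 15% and 17.6% for SH-EVs. With spike-in scaling 0 were higher and 22 lower in each of these 3 comparisons. With the intensities the authors had normalized, 1 was higher and 18 lower for Thy1-MC-EVs, 1 and 16 for MSC-EVs, and 2 and 21 for SH-EVs.

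**Figure D5:**
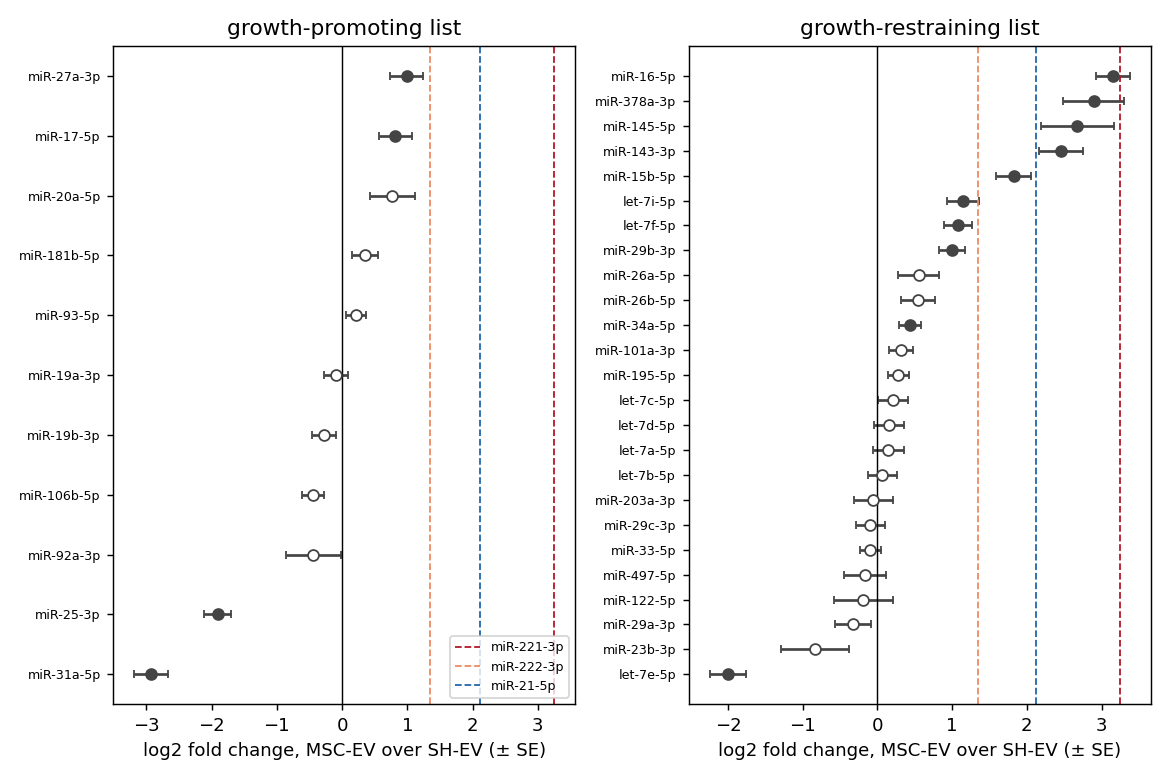
Log2 fold change of MSC-EVs over SH-EVs (x axis, ± SE) for the 11 tested growth-promoting and 25 tested growth-restraining miRNAs, filled where the limma adjusted p was under 0.05, with dashed lines at the 3 guide strands. No other growth-promoting miRNA reaches the lines at 1.35, 2.12 and 3.25, and miR-16-5p (3.15) is the growth-restraining one nearest to miR-221-3p.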

How the data were processed

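For every array the authors deposited raw intensities, blank-subtracted intensities (empty where a probe was not detected) and normalized intensities on a linear scale with a median of 25 over detected probes. A deposited table of the normalized intensity of all arrays differed from these by at most 0.05. Scanner and image software: not given in the sources used here. Of 8724 values, 6 went against the detection rule given above, computed from the blank spots without 5% at either end.

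The raw intensity was background-corrected against the blank spots (normexp, offset 50), quantile-normalized over 12 arrays and fitted with limma 3.58.1 in R 4.3.3, with 1 mean per group. The 2 flagged values were left out. The number of arrays limits the precision. No 2 arrays held identical values. Within-array differences were tested by exact permutation in Python 3.11.15.

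Planned for naming were the members, miRNAs sharing a guide's seed and the 4 most correlated with each guide. The plan also took from each growth list up to 4 with the smallest adjusted p per comparison and those against the others. For the lists it was kept only in part, and some comparisons name fewer or other called miRNAs. Members, lists, tests and alternatives were chosen with earlier results of these data known. Replicate numbers are shared between groups, and no source says what they mark. Same-numbered arrays of Thy1-MC-EVs and MH-EVs deviated together from their group means in 3 of 3 pairs (r = 0.31, 0.20 and 0.32), although these cells came from injured and from healthy livers, while each other comparison had a pair that did not. Alternatives were other background corrections, scalings and filters, fewer arrays, a replicate block, the t-test of the methods and leaving out each array. Fits without the MH-EV arrays and detection against the spots without a probe were added after seeing the data.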

Additional observations from a re-analysis of the deposited data

How the results depend on the processing

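MiR-221-3p kept its calls for MSC-EVs against SH-EVs and for Thy1-MC-EVs against MSC-EVs under every alternative run. Of the values of tested members over all alternatives, 498 kept direction and side of the threshold, 27 lost the call, 18 gained it and 30 changed direction. The cause was not tested for any of them, beyond the scale shifts given. Scaling to the spike-in control spots gave log2 differences of -2.72, -1.96, -1.58 and -1.9 for Thy1-MC-EVs against MH-EVs (miR-21-5p, miR-221-3p, miR-222-3p and miR-21-3p), of -1.01 and -0.55 for Thy1-MC-EVs against MSC-EVs (miR-21-5p and miR-222-3p), of 1.2 and 0.82 for MSC-EVs against SH-EVs (the same 2), of -1.7, -0.08 and -1.03 for MSC-EVs against MH-EVs (miR-21-5p, miR-221-3p and miR-222-3p) and of -2.9, -2.37, -1.85 and -1.7 for SH-EVs against MH-EVs (miR-21-5p, miR-221-3p, miR-222-3p and miR-21-3p). In the 3 comparisons with MH-EVs the median over all tested miRNAs moved to between -2.60 and -2.22 under it. The authors' normalized intensities gave -1.62, -0.97, 0.58 and -0.94 for Thy1-MC-EVs against MH-EVs (miR-21-5p, miR-221-3p, miR-222-3p and miR-21-3p), -1.34 for miR-21-5p in Thy1-MC-EVs against MSC-EVs, -0.28 for miR-21-5p in MSC-EVs against MH-EVs, and -1.85, -1.89 and -0.5 for SH-EVs against MH-EVs (miR-21-5p, miR-221-3p and miR-21-3p). The median of the common probes gave -0.17 for miR-21-5p and 0.36 for miR-221-3p in SH-EVs against MH-EVs, and for miR-21-3p -0.09 in Thy1-MC-EVs against MSC-EVs, 0.01 in MSC-EVs against SH-EVs and 1.04 in MSC-EVs against MH-EVs. Their 75th percentile gave 0.78 for miR-221-3p and 1.3 for miR-222-3p in SH-EVs against MH-EVs, the second past the threshold although neither group had a detected level of it, and for miR-21-3p -0.33 in Thy1-MC-EVs against MSC-EVs and 1.4 in MSC-EVs against MH-EVs. For miR-222-3p, Thy1-MC-EVs against MH-EVs fell short at 0.2 without background correction, and Thy1-MC-EVs against SH-EVs passed at 2.48 with plain subtraction and at 0.28 by the methods' t-test without adjustment. After Benjamini-Hochberg adjustment that t-test no longer called miR-21-5p in MSC-EVs against MH-EVs (2.14) and in Thy1-MC-EVs against MSC-EVs (-1.97), nor miR-222-3p in Thy1-MC-EVs against MH-EVs (0.42). The within-array contrast of MSC-EVs with the mean of the other groups was 1.74 for miR-221-3p minus miR-222-3p, -0.97 for miR-21-5p minus miR-221-3p and 0.77 for miR-21-5p minus miR-222-3p. It became -0.36, -2.16 and -2.52 with plain subtraction, and -0.45, -2.09 and -2.54 without normalization between arrays. With the authors' intensities it was -2.09 and -1.3 for the pairs with miR-21-5p.

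Leaving out 1 array at a time, miR-222-3p ranged from 0.32 to 0.46 for Thy1-MC-EVs against MH-EVs, miR-21-5p from -0.06 to 0.47 for Thy1-MC-EVs against SH-EVs, from -0.33 to 0.60 for Thy1-MC-EVs against MH-EVs and from -0.48 to 0.45 for SH-EVs against MH-EVs, and miR-21-3p from -0.23 to 0.05 for Thy1-MC-EVs against SH-EVs. The within-array contrast ranged from -1.13 to -0.85 for miR-21-5p minus miR-221-3p and from 0.60 to 0.90 for miR-21-5p minus miR-222-3p, where leaving out MH-EV replicate 3 brought both past the threshold. The count of miRNAs called for Thy1-MC-EVs against SH-EVs, 56, ranged from 30 to 72. Without replicate 1 or 2 of Thy1-MC-EVs it was 35 and 30, and without replicate 2 or 3 of SH-EVs 35 and 30.

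Counts of called miRNAs are listed first for Thy1-MC-EVs (against SH-EVs, then MH-EVs, then MSC-EVs), next for MSC-EVs (against SH-EVs, then MH-EVs) and last for SH-EVs (against MH-EVs). They were 56, 116, 91, 107, 137 and 126 in the main model, 35, 62, 45, 50, 64 and 69 among the 150 miRNAs detected on all arrays, 17, 74, 23, 56, 89 and 80 by the adjusted t-test, and 5, 364, 31, 49, 374 and 360 with spike-in scaling. The first count was 32 with plain subtraction and 102 by the unadjusted t-test. The median of the common probes gave 24 for the first, 38 for the third, 64 for the fourth and 253 for the fifth comparison, and their 75th percentile gave 22, 30, 50 and 264 for the same ones. The authors' intensities gave 226 for the second, 263 for the fifth and 232 for the sixth. With the replicate number as a block the calls of all 3 guides held, and miR-21-3p passed for Thy1-MC-EVs against MSC-EVs (0.52, limma adjusted p = 0.0397). Without the 3 MH-EV arrays, a choice made after seeing the data, miR-221-3p was 2.99 for MSC-EVs against SH-EVs, and miR-21-3p there did not pass (-0.51, limma adjusted p = 0.0514).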
